A study of Mus musculus with 12 samples.

Results

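The 10 genes described here encode the core of the interleukin-6 family signalling route to STAT3: the ligands Il6 and Lif, the receptor chains Il6ra, Il6st and Osmr, the kinases Jak1, Jak2 and Jak3, the transcription factor Stat3 and its feedback inhibitor Socs3. They were taken by name, with earlier results of these data known, and all 10 were found among the 14851 genes of the deposited tables. RNA was measured in 562 cells, an immortalized line of vascular tumor cells grown from a cutaneous tumor of a C57BL/6 Tsc1 f/f;Scl-Cre mouse given tamoxifen, in which the Scl promoter drives Cre in endothelial cells. All 4 groups therefore carry the Tsc1 deletion, although the labels call the control genotype wildtype. Cells received lentiviral Cas9 with a guide RNA and were selected with puromycin. Guides of 2 sequences were made for Fip200 and of 1 each for Atg5 and Atg7. The groups were control cells, whose guide targets EGFP, Fip200 KO cells, Atg5 KO cells and Atg7 KO cells, each with 3 libraries, and the study asked how RNA levels change when the autophagy genes Fip200, Atg5 or Atg7 are lost. Every group derives from 1 tumor line. The mRNA samples of the KO groups are described as independent and the experiments as biological triplicates, but separate cultures are not stated, so p-values measure the spread between these libraries.

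Ligands of the interleukin-6 family share the receptor chain gp130, encoded by Il6st, and pair it with a second chain such as the LIF or oncostatin M receptor. Bound receptors activate Janus kinases, which phosphorylate STAT3 on tyrosine, and the phosphorylated protein enters the nucleus and switches on genes that include Socs3. SOCS3 then binds gp130 and its kinases and shuts the signal down. RNA levels do not measure the phosphorylation of STAT3.

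Between 17266926 and 23629730 reads per library lay behind the values, which are given as RPKM (reads per kilobase of transcript scaled to the size of the library). The RNA of the targeted gene was lower than in all control libraries only in Atg7 KO, at 5.40, 2.64 and 8.34 RPKM of Atg7 against 18.4, 25.0 and 19.8 RPKM in control. Atg7 was also below all control libraries in Atg5 KO, at 9.99, 11.9 and 9.94 RPKM, and stood at 38.3, 12.4 and 8.23 RPKM in Fip200 KO. Rb1cc1, which encodes FIP200, stood at 5.18, 6.84 and 2.06 RPKM in Fip200 KO against 6.43, 8.27 and 7.73 RPKM in control, and Atg5 at 8.53, 15.5 and 12.6 RPKM in Atg5 KO against 14.2, 11.1 and 10.6 RPKM, so these pairs of groups overlapped. Cas9 cuts change the sequence of a gene and need not lower its RNA. Endothelial markers were detected in all libraries: 9 of 10 had a mean of at least 0.5 RPKM in each group, with Vwf below it. Of 6 lymphatic endothelial markers 5 were in the tables, and Lyve1 and Flt4 were above 30 RPKM in every library while Prox1 lay between 0.04 and 5.79 RPKM. Pdpn lay between 51.5 and 336 RPKM and Reln between 0.0078 and 4.39 RPKM. A mean of at least 0.5 RPKM was reached by 3 of these 5 in Fip200 KO and by 5 in each other group. Control replicate 2 stood apart, with the lowest endothelial sum of the 12 libraries (1203 RPKM against 2029 to 3335 in the others) and the highest sum of 7 mesenchymal markers (214 RPKM, against 43.8 in control replicate 3, 3.96 in control replicate 1 and 2.58 to 37.7 in the 9 KO libraries). Of those 7 markers Col3a1, Dcn, Pdgfra and Pdgfrb were highest in that library, at 143, 56.9, 9.02 and 4.19 RPKM, while Acta2 was at its lowest there, 0.444 RPKM, and Col1a1 and Col1a2 were at 0.0785 and 0.0162 RPKM. Of 6 leukocyte markers 3 were in the tables: Ptprc and Adgre1 did not exceed 0.129 RPKM in any library, and Cd68, a lysosomal protein abundant in macrophages, was at 34.4 to 91.7 RPKM in control, 15.9 to 263 RPKM in Fip200 KO, 9.94 to 11.6 RPKM in Atg5 KO and 6.95 to 27.1 RPKM in Atg7 KO.

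A gene was called when limma's adjusted p on log2(RPKM + 0.5) was at most 0.1 and the log2 fold change at least 1 in size, and 9 of the 10 genes were tested. Lif did not reach 0.5 RPKM in 3 libraries of any comparison. In Fip200 KO 0 of the 9 were called lower, where 1.64% of all tested genes were, and 0 higher, where 0.347% were. In Atg5 KO 2 of the 9 fell (Il6 and Jak3) beside 6.94% of all tested genes, and 0 rose beside 4.31%. In Atg7 KO 1 of the 9 fell (Jak3) beside 6.81%, and 0 rose beside 3.29%. The mean of the 3 KO groups gave 2 lower (Il6 and Jak3) beside 5.86% and 0 higher beside 2.37%. For the 9 genes the median log2 fold change was -0.43 (Fip200 KO), -0.32 (Atg5 KO) and -0.62 (Atg7 KO), where the medians of all tested genes were 0.016, 0.055 and -0.008. The same 3 control libraries enter every one of these comparisons.

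By mean level the control order was Jak1, Socs3, Il6st, Stat3, Jak3, Il6, Osmr, Jak2, Lif and Il6ra, from 60.0 to 4.48 RPKM, and of the neighbours in that order only Stat3 and Jak3 did not overlap across libraries. In each KO group the order began with Jak1, Il6st, Stat3 and Socs3 and ended with Lif, whose mean was between 0.0638 and 0.140 RPKM. In Atg5 KO the libraries of Jak1, Il6st, Stat3 and Socs3 each lay wholly above those of the next gene in the order, as did those of Il6 above Lif.

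**Figure D1:**
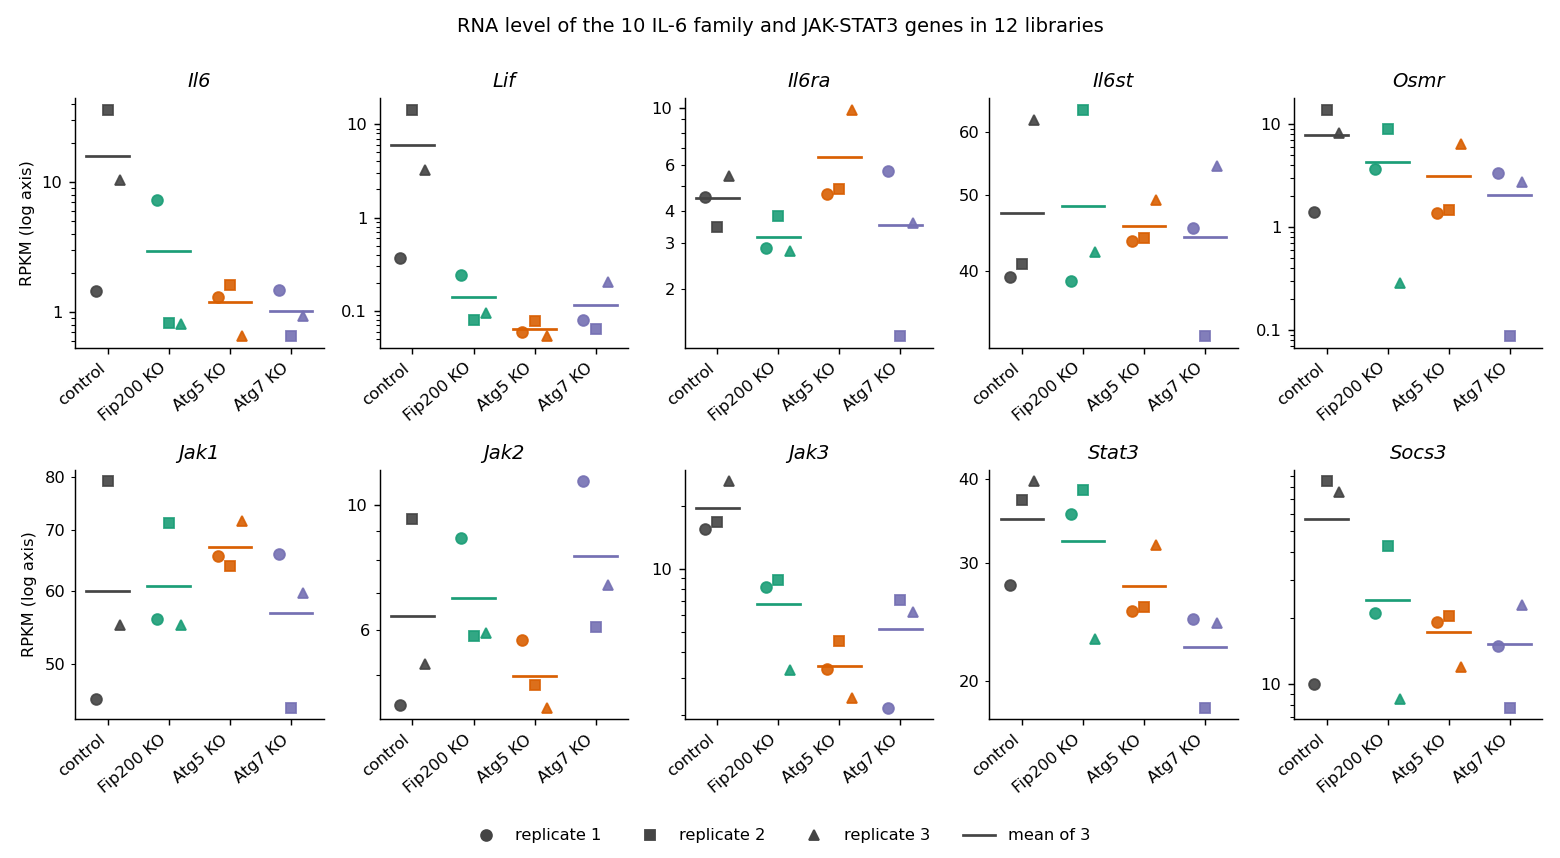
RNA level of each gene in RPKM on a log axis (scales differ between panels), with a point for each library, its shape giving the replicate number, and a line at the mean of 3. Jak3 and Lif lie below all 3 control libraries in every KO library, whereas Il6, Osmr and Socs3 overlap with control replicate 1.

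Promoter letters are shown for 2 genes: Socs3, the only one of the 10 in whose window the STAT motif TTCNNNGAA was found, and Il6, one of the 2 genes called, whose window lacks it. The motif reads the same on both strands. It was sought from 250 bases before to 50 bases after the start of each gene in RefSeq (GRCm38.p6), where 8.3% of all 32851 windows hold it. In Socs3 the match begins 154 bases before the start. The 250 bases before the start lie at chr11:117969367-117969616 on the minus strand for Socs3 and at chr5:30012864-30013113 on the plus strand for Il6, both written 5′ to 3′ with the motif in capitals.
Socs3: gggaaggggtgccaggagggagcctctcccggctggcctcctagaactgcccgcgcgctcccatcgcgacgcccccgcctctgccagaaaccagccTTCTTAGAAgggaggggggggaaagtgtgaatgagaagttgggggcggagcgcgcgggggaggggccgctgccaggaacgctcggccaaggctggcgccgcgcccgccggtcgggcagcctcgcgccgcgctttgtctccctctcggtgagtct
Il6: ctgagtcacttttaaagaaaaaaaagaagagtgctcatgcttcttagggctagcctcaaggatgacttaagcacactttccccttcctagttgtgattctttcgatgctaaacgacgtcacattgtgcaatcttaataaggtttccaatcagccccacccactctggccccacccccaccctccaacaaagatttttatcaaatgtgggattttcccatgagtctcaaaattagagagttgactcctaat
A match is a run of letters and not a measured binding site.

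Il6, which encodes the founding cytokine of the family, was measured at 1.45, 36.0 and 10.4 RPKM in control replicates 1, 2 and 3. It stood at 7.28, 0.829 and 0.815 RPKM in Fip200 KO, at 1.30, 1.62 and 0.662 RPKM in Atg5 KO and at 1.48, 0.653 and 0.935 RPKM in Atg7 KO. Control replicates 2 and 3 were above all 9 KO libraries, while control replicate 1 lay within their range, and 75.3% of the control sum came from replicate 2. Il6 fell in Atg5 KO, with a log2 fold change of -2.48 (SE 0.962, limma adjusted p = 0.0925). In Atg7 KO the log2 fold change was -2.63 (SE 0.943), but limma's adjusted p of 0.102 missed the threshold, and in Fip200 KO it was -1.94 (SE 1.13, limma adjusted p = 0.431). Over the mean of the 3 KO groups it fell, by a log2 fold change of -2.35 (SE 0.756, limma adjusted p = 0.0532), but without control replicate 2 this was -1.35 (limma adjusted p = 0.276) and without control replicate 3 -2.23 (limma adjusted p = 0.175). Without control replicate 2 the Atg5 KO value was -1.49 with limma's adjusted p at 0.183, and the call was also lost without control replicate 3 or any 1 of the Atg5 KO libraries (limma adjusted p between 0.151 and 0.202). Without control replicate 1 Il6 was called in Atg7 KO too (-3.74, limma adjusted p = 0.0219).

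Lif encodes leukemia inhibitory factor. Its level was 0.365, 14.4 and 3.27 RPKM in control replicates 1, 2 and 3, from 30, 1474 and 280 reads. In the KO libraries it was 0.244, 0.0801 and 0.0945 RPKM in Fip200 KO, 0.0597, 0.0783 and 0.0533 RPKM in Atg5 KO, and 0.0801, 0.0632 and 0.203 RPKM in Atg7 KO, from 5 to 21 reads. All 9 KO libraries were below all 3 control libraries. The control mean was 43.0-fold the Fip200 KO mean, 94.1-fold the Atg5 KO mean and 52.0-fold the Atg7 KO mean. Replicate 2 gave 79.8% of the control sum, and without it these ratios were 13, 28.5 and 15.7. A two-sided exact permutation test gave p = 0.1 for each KO group, the smallest that 3 libraries against 3 can give. The lack of overlap alone fixes this value, so the test adds nothing to it.

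Clcf1, which encodes another cytokine of the family, fell in Atg5 KO (log2 fold change -1.23, limma adjusted p = 0.0182) and in Atg7 KO (-1.71, limma adjusted p = 0.0269). Its levels lay between 13.6 and 30.3 RPKM in control and between 4.12 and 13.2 RPKM in the 9 KO libraries, and in control it was highest in replicate 2 and lowest in replicate 1. The Atg5 KO call was lost without control replicate 2 (-0.95) and the Atg7 KO call without control replicate 3 (-1.71, limma adjusted p = 0.105), and both were lost in a fit that also held a term for the library-name prefix (-1.54 and -2.07, limma adjusted p = 0.11 and 0.396). Of 8 ligands listed 7 were in the tables and 5 were tested, of which 0 were called in Fip200 KO, 2 fell in Atg5 KO (Il6 and Clcf1) and 1 fell in Atg7 KO (Clcf1), beside 1.64%, 6.94% and 6.81% of all tested genes called lower.

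Among the receptor chains, Il6st had the steadiest level. It was measured at 39.4, 40.9 and 62.1 RPKM in control, 38.9, 64.1 and 42.3 RPKM in Fip200 KO, 43.7, 44.1 and 49.3 RPKM in Atg5 KO and 45.4, 33.1 and 54.3 RPKM in Atg7 KO. The log2 fold changes were 0.027 (95% interval -0.62 to 0.67), -0.024 (-0.46 to 0.42) and -0.10 (-0.68 to 0.49). No difference as large as the threshold of 1 lay within these intervals.

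Il6ra encodes the chain that binds IL-6 itself. Control libraries held 4.52, 3.46 and 5.46 RPKM, Fip200 KO libraries 2.88, 3.83 and 2.80 RPKM, Atg5 KO libraries 4.66, 4.87 and 9.83 RPKM, and Atg7 KO libraries 5.69, 1.31 and 3.58 RPKM. The groups overlapped, and the log2 fold changes were -0.43, 0.42 and -0.46 for Fip200, Atg5 and Atg7 KO (limma adjusted p = 0.442, 0.318 and 0.496).

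Osmr encodes the oncostatin M receptor chain and varied widely within groups. It was at 1.41, 13.9 and 8.31 RPKM in control, 3.69, 8.93 and 0.291 RPKM in Fip200 KO, 1.37, 1.48 and 6.49 RPKM in Atg5 KO and 3.40, 0.0875 and 2.73 RPKM in Atg7 KO. All groups overlapped. The log2 fold changes of -0.98, -1.07 and -1.68 were not called (limma adjusted p = 0.659, 0.351 and 0.247). Without control replicate 1 Osmr was called lower in Atg5 KO (-1.93, limma adjusted p = 0.0619). Osm, the gene for its ligand, was not analysed here.

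Lifr encodes the receptor chain for LIF. Its level was 0.745, 1.65 and 1.70 RPKM in control, 0.0769 to 0.124 RPKM in Fip200 KO, 0.0895 to 0.271 RPKM in Atg5 KO and 0.0504 to 0.122 RPKM in Atg7 KO, so every KO library lay below every control library. It passed the filter only through the 3 control libraries, so it could hardly be called other than lower, and it was not tested when 1 of them was left out. Its log2 fold changes of -1.59, -1.47 and -1.63 are therefore a description of these levels. Of the other 5 receptor genes tested 0 were called in each KO group, which at 1.64%, 6.94% and 6.81% of all tested genes called lower is near the background.

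Jak1 was the most abundant of the 10 transcripts in every group, with a mean of 60.0 RPKM in control. It encodes the kinase used most by gp130 receptors. Its levels were 45.8, 79.1 and 55.1 RPKM in control, 56.0, 71.3 and 55.1 RPKM in Fip200 KO, 65.5, 64.0 and 71.6 RPKM in Atg5 KO and 65.9, 44.8 and 59.7 RPKM in Atg7 KO. The log2 fold changes were 0.046 (95% interval -0.54 to 0.63), 0.19 (-0.28 to 0.67) and -0.059 (-0.63 to 0.51), all with overlapping libraries.

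Jak2, a kinase of cytokine and hormone receptors, was read at 4.44, 9.42 and 5.23 RPKM in control, 8.72, 5.87 and 5.95 RPKM in Fip200 KO, 5.77, 4.81 and 4.38 RPKM in Atg5 KO and 11, 6.08 and 7.23 RPKM in Atg7 KO. The groups overlapped, with log2 fold changes of 0.14, -0.26 and 0.36 (limma adjusted p = 0.854, 0.486 and 0.477).

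Jak3 fell in the Atg5 KO and Atg7 KO cells. The kinase is best known from lymphocytes, where it pairs with the common gamma chain of interleukin receptors. Jak3 was measured at 15.5, 16.7 and 26.3 RPKM in control, at 8.18, 8.86 and 3.28 RPKM in Fip200 KO, at 3.32, 4.50 and 2.42 RPKM in Atg5 KO and at 2.16, 7.11 and 6.22 RPKM in Atg7 KO. Every KO library lay below every control library. Jak3 fell in Atg5 KO (log2 fold change -2.35, SE 0.268, limma adjusted p = 0.00419) and in Atg7 KO (-1.92, SE 0.421, limma adjusted p = 0.0303). In Fip200 KO the log2 fold change was -1.53 (SE 0.399, 95% interval -2.46 to -0.59) and limma's adjusted p of 0.149 missed the threshold, which among fits that left out 1 library was met only without Fip200 KO replicate 3 (-1.11, limma adjusted p = 0.0934). Over the mean of the 3 KO groups it fell, with a log2 fold change of -1.93 (SE 0.364, limma adjusted p = 0.00743). It was the 1 tested gene of the 9 without overlap in Fip200 KO, where 12.4% of all tested genes lay wholly below control and 11.7% wholly above. It was likewise the 1 in Atg5 KO (22.0% below and 28.4% above) and, with Stat3, among the 2 in Atg7 KO (20.4% below and 19.2% above). The Atg5 KO call stood when any 1 library was left out (limma adjusted p between 0.00629 and 0.0243), while the Atg7 KO call was lost without control replicate 3 (-1.69, limma adjusted p = 0.117). Jak3 lies on chromosome 8, whose 492 genes at 2 RPKM or more in every library had a median log2 fold change of -0.34, -0.34 and -0.36 in Fip200, Atg5 and Atg7 KO, against 0.038, 0.093 and 0.037 over the 8574 such genes of all chromosomes. The part of that shift in the Jak3 values was not tested.

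**Figure D2:**
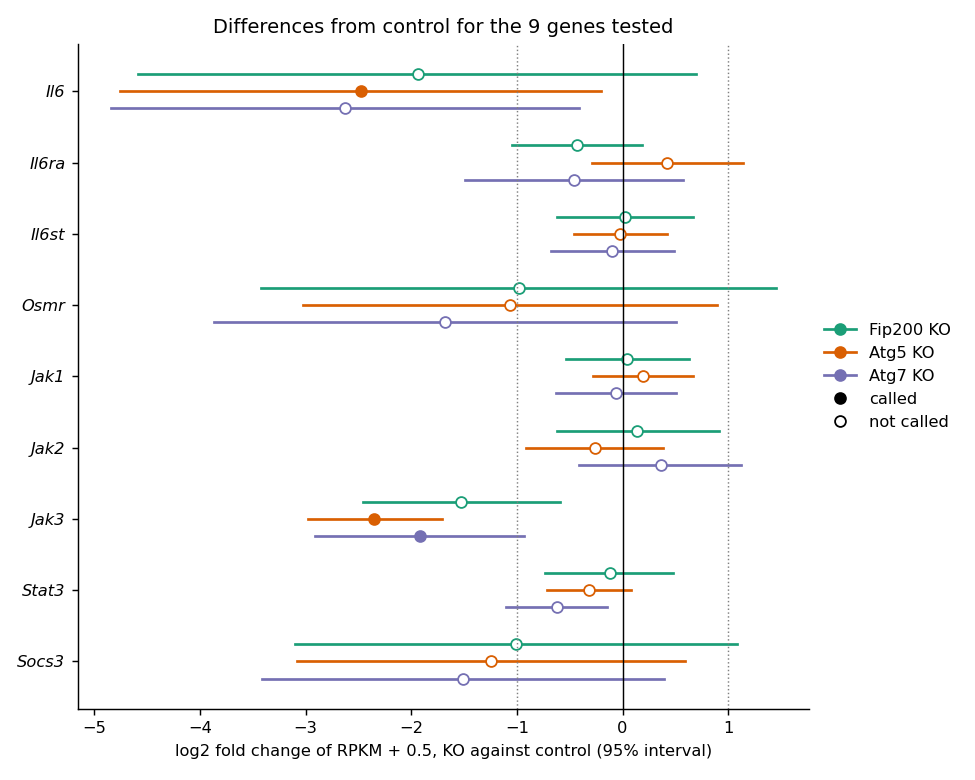
Log2 fold change of RPKM + 0.5 against control for the 9 genes tested, with a point for the estimate, filled where called, and a bar for the 95% interval; dotted lines mark a size of 1. The Jak3 bars lie below 0 in all 3 KO groups, and those of Osmr and Socs3 are wide and cross 0.

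Stat3 was not called in any KO group. Its levels were 27.8, 37.2 and 39.7 RPKM in control, 35.5, 38.5 and 23.1 RPKM in Fip200 KO, 25.4, 25.8 and 31.9 RPKM in Atg5 KO and 24.7, 18.2 and 24.4 RPKM in Atg7 KO. All Atg7 KO libraries were below all control libraries, and the other 2 KO groups overlapped with control. The log2 fold change was -0.62 in Atg7 KO (SE 0.2, limma adjusted p = 0.0778), below the size needed for a call. It was -0.32 in Atg5 KO (SE 0.168, limma adjusted p = 0.188) and -0.12 in Fip200 KO (SE 0.258, limma adjusted p = 0.836). Over 12233 genes, those with the most similar pattern across the 12 libraries were Slc31a1, Wdr70 and Rictor, whose centred log2 values differed from those of Stat3 by a root mean square of 0.127, 0.134 and 0.148, where the spread of Stat3 itself was 0.329.

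Socs3 was measured at 10.0, 84.9 and 75.6 RPKM in control replicates 1, 2 and 3. It stood at 21.0, 43.0 and 8.50 RPKM in Fip200 KO, 19.1, 20.5 and 11.9 RPKM in Atg5 KO and 14.9, 7.73 and 22.9 RPKM in Atg7 KO. Control replicates 2 and 3 were above all 9 KO libraries, but control replicate 1 was above only 2 of them. The log2 fold changes of -1.01 (SE 0.891), -1.25 (SE 0.774) and -1.51 (SE 0.809) were not called (limma adjusted p = 0.596, 0.255 and 0.232). Without control replicate 1 Socs3 was called lower in Atg5 KO (-2.23, limma adjusted p = 0.0058) and Atg7 KO (-2.49, limma adjusted p = 0.03), so that 1 control library decided the call. The genes with the most similar pattern were Arhgap9, Cxadr and Junb, at a root mean square difference of 0.447, 0.486 and 0.486, where the spread of Socs3 was 1.07.

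Il6, Lif, Osmr and Socs3 thus had the same order in control, highest in replicate 2 and lowest in replicate 1, and the mesenchymal marker sum had this order too, at 214, 43.8 and 3.96 RPKM in replicates 2, 3 and 1. In the KO groups the sum ranged from 3.42 to 37.7 RPKM in Fip200 KO, 7.67 to 37.3 RPKM in Atg5 KO and 2.58 to 16.3 RPKM in Atg7 KO. The markers within the sum did not move together. Dcn was at most 0.989 RPKM in the KO libraries, against 56.9 and 15.2 RPKM in control replicates 2 and 3. In control replicate 1 Dcn was at 0.125 RPKM, within the range of the KO libraries. Col1a2 was at most 0.0202 RPKM in control and 0.102 to 1.54 RPKM in the KO libraries. Acta2 gave 15.2 RPKM of the sum in Fip200 KO replicate 3 and 13.2 RPKM in Atg7 KO replicate 1. The part of these markers in the differences of the 4 genes was not tested. Jak1 and Jak2, which were not called in any comparison, shared the order, and Jak3 did not, being highest in control replicate 3. In a bulk sample fewer cells of a type and less RNA per cell cannot be told apart.

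**Figure D3:**
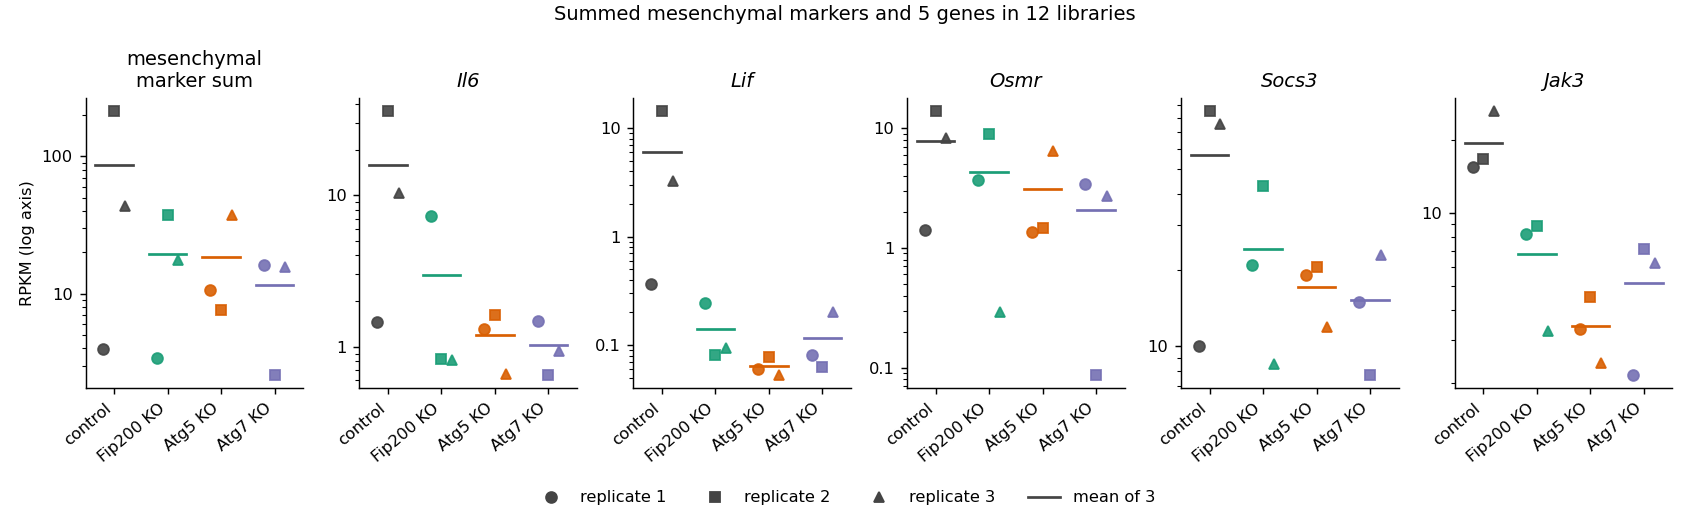
Summed RPKM of 7 mesenchymal markers and RPKM of Il6, Lif, Osmr, Socs3 and Jak3 in each library, on log axes, with the mean of 3 as a line. In control the marker sum, Il6, Lif, Osmr and Socs3 are highest in replicate 2 and lowest in replicate 1, and Jak3 is highest in replicate 3.

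The library names also carry 3 prefixes that cross the groups unevenly. One covers control replicate 1 and all Fip200 KO libraries, another control replicates 2 and 3 with Atg5 KO replicates 1 and 2, and the last Atg5 KO replicate 3 with all Atg7 KO libraries. Within the first, Socs3 averaged 24.2 RPKM in Fip200 KO against 10.0 RPKM in control, Il6 2.97 against 1.45 RPKM and Osmr 4.31 against 1.41 RPKM, the opposite direction to the full comparison. For Il6 this rested on Fip200 KO replicate 1, since the other 2 libraries, at 0.829 and 0.815 RPKM, were below the control library. Jak3 was still lower in Fip200 KO, at 6.77 against 15.5 RPKM, and Lif was 2.61-fold lower. Within the second, the control mean exceeded the Atg5 KO mean 4.06-fold for Socs3, 15.9-fold for Il6, 7.77-fold for Osmr, 128-fold for Lif and 5.49-fold for Jak3. The last prefix holds no control library, so for Atg7 KO prefix and group cannot be told apart within it. With the prefix as a term over all 12 libraries, Jak3 remained called in Atg5 KO (-2.29), and in Atg7 KO its log2 fold change was -1.48 with limma's adjusted p at 0.635.

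The KO groups were also compared with each other. Of the 9 genes, 0 were called for Atg5 against Fip200 KO, 0 for Atg7 against Fip200 KO and 0 for Atg7 against Atg5 KO, and limma called 0 of all 12233 tested genes in each (0%), although 927, 916 and 562 genes had an unadjusted p under 0.05. For the comparisons with Fip200 KO the count over all genes depended on the library left out: without Fip200 KO replicate 3 limma called 300 genes for Atg5 against Fip200 KO and 402 for Atg7 against Fip200 KO, and without Fip200 KO replicate 2 it called 4 in each, with 0 of the 9 among them. For Atg7 against Atg5 KO it called 1 gene without Atg5 KO replicate 3, also none of the 9. The smallest p among these genes was that of Stat3 for Atg7 against Fip200 KO, at a log2 fold change of -0.50 (limma adjusted p = 0.657). For Jak3 the log2 fold change was -0.82 for Atg5 against Fip200 KO, with a 95% interval of -1.80 to 0.16, which reaches past the threshold size.

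Beyond the 10, lists of pathway genes held 51 others, of which 50 were in the tables. Of these 47 were tested in Fip200 KO, with 1 called lower (Lifr) and 0 higher, beside 1.64% and 0.347% of all tested genes. In Atg5 KO 46 were tested, with 8 lower and 2 higher, beside 6.94% and 4.31%. In Atg7 KO 47 were tested, with 7 lower and 1 higher, beside 6.81% and 3.29%. These counts include Lifr and, in Atg5 and Atg7 KO, Lrg1, which passed the filter only through the control libraries. The median log2 fold changes were -0.46, -0.38 and -0.32, where those of all tested genes were 0.016, 0.055 and -0.008. Over all tested genes the calls numbered 234, 1331 and 1191 in the 3 KO groups. Without control replicate 2 the pathway calls numbered 0, 5 and 3, beside 0, 985 and 730 over all tested genes. Without control replicate 3 they numbered 0, 6 and 1, beside 0, 1106 and 576. Lifr and, in Atg5 and Atg7 KO, Lrg1 were not tested in these fits. Leaving out Fip200 KO replicate 3 gave 5 pathway calls in Fip200 KO, beside 598 over all tested genes. With the prefix as a term the pathway calls numbered 0, 3 (Junb, Lifr and Stat4) and 0, so all other calls in a single KO group were lost. In that fit 47, 663 and 38 of all 12233 tested genes were called, so calls were lost among all genes too. With all 12 libraries fitted together the pathway calls numbered 5, 7 and 9, beside 608, 1051 and 1110 over all tested genes. Bcl3, Icam1 and Stat5b in Atg5 KO and Cebpb and Lcn2 in Atg7 KO were not among them.

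Known STAT3 target genes gave most of these calls. Of 20 tested in each KO group, which count Socs3 in, 0 were called in Fip200 KO (beside 1.64% lower and 0.347% higher of all tested genes), 5 lower and 2 higher in Atg5 KO (6.94% and 4.31%), and 5 lower and 1 higher in Atg7 KO (6.81% and 3.29%). The medians of the 20 were -0.74, -0.75 and -0.78, against 0.016, 0.055 and -0.008 over all tested genes. Bcl3, a nuclear IκB-like protein, fell in Atg5 KO (-1.98) and Atg7 KO (-3.07), from 5.40, 37.6 and 28.2 RPKM in control to between 0.209 and 6.73 RPKM in these groups. Its control levels had the same order as the mesenchymal marker sum, and its Atg5 KO call was lost without control replicate 2 (-1.46), control replicate 3 (-1.67), Atg5 KO replicate 1 (-1.76) or Atg5 KO replicate 2 (-1.89). Its Atg7 KO call was lost without control replicate 2 (-2.55), control replicate 3 (-2.76) or Atg7 KO replicate 1 (-3.31). Vegfa, the endothelial growth factor, fell in both as well (-1.26 and -1.20), from 20.9 to 37.4 RPKM to between 7.35 and 16.7 RPKM. The Vegfa call was lost in Atg5 KO without control replicate 2 (-0.99), and in Atg7 KO without control replicate 2 (-0.93), control replicate 3 (-1.34), Atg7 KO replicate 1 (-1.17) or Atg7 KO replicate 2 (-0.93). Lrg1, a secreted glycoprotein, was at 0.813 to 4.34 RPKM in control, at most 0.479 RPKM in Atg5 KO and at most 0.214 RPKM in Atg7 KO, and listed at 0 in 1 Fip200 KO library. It too passed the filter in Atg5 and Atg7 KO only through the control libraries, and its values there are a description.

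In Atg5 KO, Junb, an AP-1 subunit, fell by 1.60 on the log2 scale, with overlapping libraries (28.5 to 50.0 RPKM against 48.7 to 189 RPKM), and the call was lost without control replicate 2 (-1.34), control replicate 3 (-1.24), Atg5 KO replicate 1 (-1.59) or Atg5 KO replicate 3 (-1.40). Hif1a, the hypoxia-induced factor, fell by 1.10, or by 0.94 and below the size of a call without Atg5 KO replicate 1, and its limma adjusted p was 0.177 with the prefix term (-1.23). In Atg7 KO the lipocalin gene Lcn2 fell by 4.0 on the log2 scale, from 32.3, 341 and 297 RPKM in control to 1.29 to 25.4 RPKM, and the call was lost without control replicate 2 (-3.40), control replicate 3 (-3.50) or Atg7 KO replicate 1 (-4.46). Cebpb, a transcription factor of the acute phase response, fell by 1.47 in Atg7 KO, and its call was lost without control replicate 2 or 3 (-1.32 for each). Cebpd was called lower only over the mean of the 3 KO groups (-1.66, limma adjusted p = 0.0774), with overlapping libraries, and it was -0.93 without control replicate 2 (limma adjusted p = 0.373), with the call also lost without control replicate 3, any 1 Atg5 KO library or Atg7 KO replicate 2 or 3.

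Other listed STAT3 targets were higher. Ccnd1, which encodes cyclin D1, rose in Atg7 KO (1.95, limma adjusted p = 0.0104), from 38.8 to 71.1 RPKM in control to 156 to 227 RPKM (with the prefix term 1.48, limma adjusted p = 0.411), and all libraries of Fip200 KO (1.48, limma adjusted p = 0.11) and Atg5 KO (0.99, limma adjusted p = 0.0474) were above control too without being called. Over the mean of the 3 KO groups Ccnd1 rose (1.47, limma adjusted p = 0.00585), and this call stood under all 18 alternatives run, the prefix term included. Birc5, the gene for survivin, rose in Atg5 KO (1.08, limma adjusted p = 0.0146), though by less than the size of a call without control replicate 1 (0.84) and with the prefix term (0.87, limma adjusted p = 0.23). Icam1, an adhesion molecule, rose in Atg5 KO (1.18, limma adjusted p = 0.00954), at 61.9 to 86.8 RPKM against 25.8 to 40.8 RPKM, and ranged from 2.17 to 79.9 RPKM in Atg7 KO. The Icam1 call was lost with all 12 libraries fitted together (1.18, limma adjusted p = 0.598) and with the prefix term (1.24, limma adjusted p = 0.74).

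Of the other STAT factors, Stat5b fell in Atg5 KO (-1.33, limma adjusted p = 0.0224), from 4.44 to 5.02 RPKM in control to 0.773 to 2.36 RPKM, and was not called without Atg5 KO replicate 3 (-0.96), with all 12 libraries fitted together (-1.33, limma adjusted p = 0.243) or with the prefix term (-1.01, limma adjusted p = 0.564). Of the listed inhibitors of JAK-STAT signalling, 0 of 16 tested were called in Fip200 KO, 0 of 15 in Atg5 KO and 0 of 16 in Atg7 KO, beside the shares of all tested genes given above. The 16 include Socs3. Ptpn11, which encodes the phosphatase SHP2 and had the highest mean of them over the 12 libraries, lay between 31.5 and 37.2 RPKM in control and between 22.8 and 43.5 RPKM in the KO libraries.

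**Figure D4:**
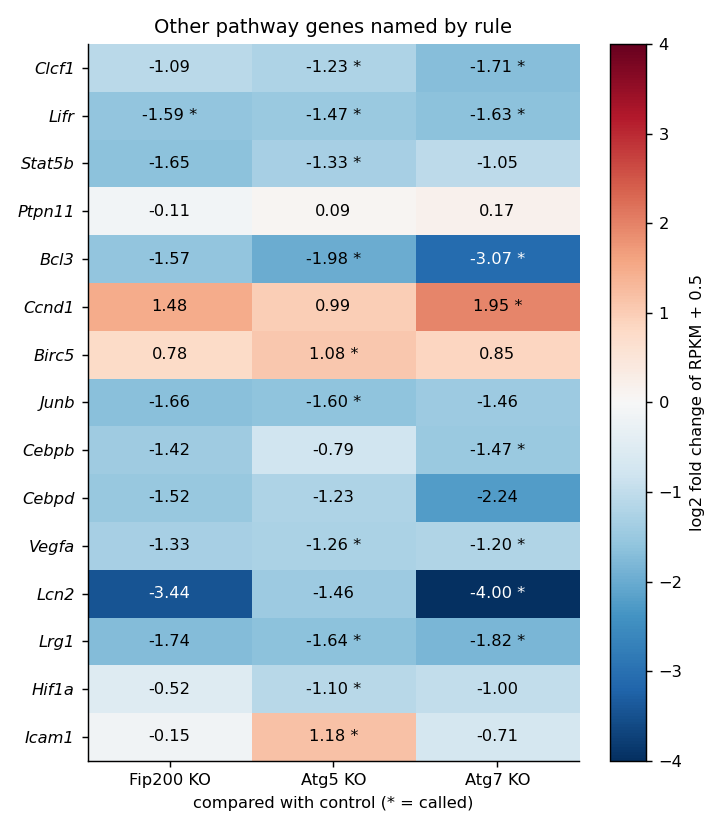
Log2 fold change of RPKM + 0.5 against control for 15 further pathway genes, with blue for lower, red for higher and a star where called. Lifr is starred in all 3 KO groups, where it was tested only through its control levels, and Ccnd1 is above 0 in all 3.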

How the data were processed

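The authors sequenced directional libraries, aligned reads with TopHat2, counted them on known transcripts and compared groups with edgeR, of which the versions, genome build and annotation are not given in the sources used here. The deposited tables hold 1 RPKM value per library, a group mean as signal (reads divided by size factors, by the authors), and the authors' own fold changes and p-values, which were not used. The columns do not name their unit: whole reads were recovered for 14831 of 14851 genes from ratios of values (tolerance 0.0001), 19 of them up to a common factor, and reads gave the deposited means. Genes at 0.5 RPKM or more in 3 compared libraries were tested with limma 3.58.1 (R 4.3.3, trend) on log2(RPKM + 0.5), which understates changes of low genes, with Benjamini-Hochberg adjustment over all genes tested. Comparisons between KO groups and of their mean used all 12 libraries. On simulated data with independent normal noise no changed gene was called with the wrong sign. The simulated shifts exceeded the size of a call, so a wrong sign was unlikely from the start. No prefix effect or outlying library was simulated, so the result does not bear on those. Pathway genes were named when called in 1 or more comparisons, or else as the most abundant of their list. The genes and lists were chosen with earlier results of these data known. Alternatives changed the pseudocount, filter, scaling, libraries, replicate block, prefix term and test (limma voom on recovered reads).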

Additional observations from a re-analysis of the deposited data

How the results depend on the processing

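The number of the 9 tested genes called in Fip200 KO was 0. It was 1 when all 12 libraries were fitted together and 0 to 1 when 1 library was left out (1 without Fip200 KO replicate 3). Over all tested genes the Fip200 KO calls numbered 234, 608 with all 12 libraries and 0 to 598 with 1 library left out (598 without that replicate). In Atg5 KO the 2 calls became 1 with all 12 libraries and 1 with limma voom on recovered reads. They stayed 2 with no filter, where Lif was called and Il6 was not (limma adjusted p = 0.122). With 1 library left out they numbered 1 to 4, 4 without control replicate 1. Over all tested genes the Atg5 KO calls numbered 1331, 1051 with all 12 libraries, 1639 with limma voom and 1330 with no filter. They numbered 985 to 1502 with 1 library left out, 1502 without control replicate 1. In Atg7 KO the 1 call became 2 at a pseudocount of 0.1, with RPKM of at least 1 or with all 12 libraries. It became 0 with the prefix term and 0 to 3 with 1 library left out. Over all tested genes the Atg7 KO calls numbered 1191, and 1385 at a pseudocount of 0.1, 1088 with RPKM of at least 1 and 1110 with all 12 libraries. They numbered 38 of 12233 with the prefix term and 576 to 1514 with 1 library left out. The mean of the KO groups gave 2, 0 with the prefix term, and 1 to 3 with 1 library left out. Over all tested genes that mean gave 1007, 416 with the prefix term, and 550 to 1189 with 1 library left out. Jak3 in Atg5 KO stayed called under all 15 alternatives run (limma adjusted p between 0.00396 and 0.0754). With the prefix term the log2 fold change in Fip200 KO turned to 0.29 for Il6, 0.72 for Osmr, 0.18 for Stat3 and 0.95 for Socs3, and that of Jak1 in Atg5 KO to -0.028, none of them called; the cause was not tested. Leaving out 1 library gave ranges that cross 0 for Il6st (-0.19 to 0.23 in Fip200 KO, -0.14 to 0.18 in Atg5 KO, -0.26 to 0.11 in Atg7 KO), Jak1 (-0.13 to 0.26 in Fip200 KO, -0.23 to 0.16 in Atg7 KO), Jak2 (-0.059 to 0.44 in Fip200 KO, -0.47 to 0.037 in Atg5 KO), Il6ra (-0.85 to 0.033 in Atg7 KO), and in Fip200 KO for Osmr (-1.84 to 0.013) and Stat3 (-0.28 to 0.10). The replicate block left the calls among the 9 genes at 0, 2, 1 and 2 and 0 between KO groups. It moved those among the other pathway genes from 1 to 0 in Fip200 KO, 10 to 10 in Atg5 KO and 8 to 4 in Atg7 KO. Lifr lost its Fip200 KO call, and Bcl3, Cebpb, Lcn2 and Vegfa lost theirs in Atg7 KO. Over the mean of the 3 KO groups Bcl3, Cebpb and Cebpd lost their calls. With the block 93, 1322 and 1071 of all tested genes were called in Fip200, Atg5 and Atg7 KO. Libraries of the same number shared only a number, with correlations of their deviations between -0.496 and 0.252. With 3 libraries a group, the intervals of Il6, Osmr and Socs3 in each KO group against control span more than 3 log2 units, and Lif was read from 5 to 21 reads in the KO libraries.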
